A study of Homo sapiens with 4 samples.

Results

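The genes described here are 7 components of the plasminogen and matrix protease system, PLAT, PLAU, PLAUR, SERPINE2, MMP1, MMP14 and TIMP1. They were chosen by name out of 19970 protein-coding genes, with earlier results of these data known. Their members in the data are the STARR-seq peaks whose summit lay inside one of these genes or within 10 kb of it, which came to 58 of 260678 peaks on chromosomes 1 to 22 and X. STARR-seq reads out enhancers from RNA: genomic DNA pieces are cloned into a reporter, and each piece that is active drives transcripts containing itself, which are sequenced. Library DNA and host cells were both MDA-MB-231, an invasive triple-negative breast cancer line, and drug was in the medium before the library was transfected. The treatments were SHP1705 at 10 µM, a compound that stabilizes the circadian repressor CRY2 according to the series title, MG132 at 100 nM, a proteasome inhibitor, the combination of both at these doses, and DMSO. RNA was taken after 8 h, and each treatment was 1 library with 1 peak list.

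Plasminogen is a circulating zymogen that is cut to plasmin by tissue-type plasminogen activator, the product of PLAT, or by urokinase, the product of PLAU. Urokinase is held at the cell surface by its receptor, encoded by PLAUR, and serpins such as protease nexin-1, encoded by SERPINE2, inhibit the activators. Plasmin degrades fibrin and can activate matrix metalloproteinases. MMP1 encodes an interstitial collagenase and MMP14 a membrane-anchored metalloproteinase that activates pro-MMP2, while TIMP1 encodes a secreted inhibitor of metalloproteinases. Urokinase and its receptor are well known for their high levels in invasive breast cancer cells, this line included. A STARR-seq peak is not a measure of the mRNA of the gene it lies in.

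The libraries were unequal in depth, with 118324303 fragments for SHP1705, 27289266 for MG132, 28331486 for the combination and 29717604 for DMSO. Heights below are therefore given as FPM, the pileup (fragments that cover the peak summit) per 1000000 fragments of the library. The lowest pileup among called peaks was 28 fragments in SHP1705, 12 in MG132, 12 with both drugs and 13 in DMSO, and a gene without a peak may still have had fragments below that. With 1 library per treatment there was no spread between replicates, so no p-value is given. Intervals are exact 95% binomial intervals that cover counting error only. They treat each fragment as independent, but duplicate fragments were kept, so the intervals may be too narrow even for counting error. The peak caller's minimum width was 299 bp in SHP1705, 354 bp in MG132, 355 bp in the combination and 346 bp in DMSO. Peaks of a plasmid library cannot verify the identity of the cells: the mesenchymal markers VIM, CD44 and CAV1 had peaks in every list, but so did the luminal gene ESR1. The luminal genes GATA3 and FOXA1 and the blood gene PTPRC had peaks in 2 lists each, and the blood gene HBB in none. CDKN2A, known to be deleted in this line, had peaks inside or within 10 kb in all 4 lists.

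SHP1705 had a peak at all 7 genes, as did MG132, while the combination had one at 5 and DMSO at 6. With every list cut to its 47822 strongest peaks, MG132 had peaks at 3 of the genes and the combination at 2, while SHP1705 kept 7 and DMSO 6, so that MG132 then stood below DMSO. The share of all protein-coding genes with a peak inside or within 10 kb was 88.4% in SHP1705, 71.3% in MG132, 64.0% with both drugs and 58.8% in DMSO. Read against these shares, counts over 7 genes do not set them apart. The peaks numbered 23 with SHP1705, 14 with MG132, 9 with both drugs and 12 with DMSO. Per 100 kb of gene and flank that was 7.83, 4.77, 3.07 and 4.09 peaks, where the windows of all protein-coding genes held 4.17, 2.29, 1.80 and 1.49 in the same order of lists. The latter pool genes of every length and were not matched to these 7, and the difference was not tested. PLAUR had no peak in the combination, and SERPINE2, the longest of the 7 genes, had none in the combination or in DMSO. After merging peaks that shared at least 1 bp, the 7 genes had 38 regions, of which 28 held a peak in 1 list, 4 in 2, 2 in 3 and 4 in all 4. As shares, 73.7% were in 1 list and 10.5% in all 4, beside 89.5% and 2.05% of all 223513 regions, and the difference was not tested. The 4 regions in all lists lay in PLAT, PLAU, MMP14 and TIMP1, whereas 8.74% of all protein-coding genes had such a region inside or within 10 kb. With the lists cut to equal length, 1 region was left in all 4. At the 4 regions each other list had under 1% of the raw SHP1705 pileup, and whether fragments of the SHP1705 library were assigned to the other libraries was not tested.

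**Figure D1:**
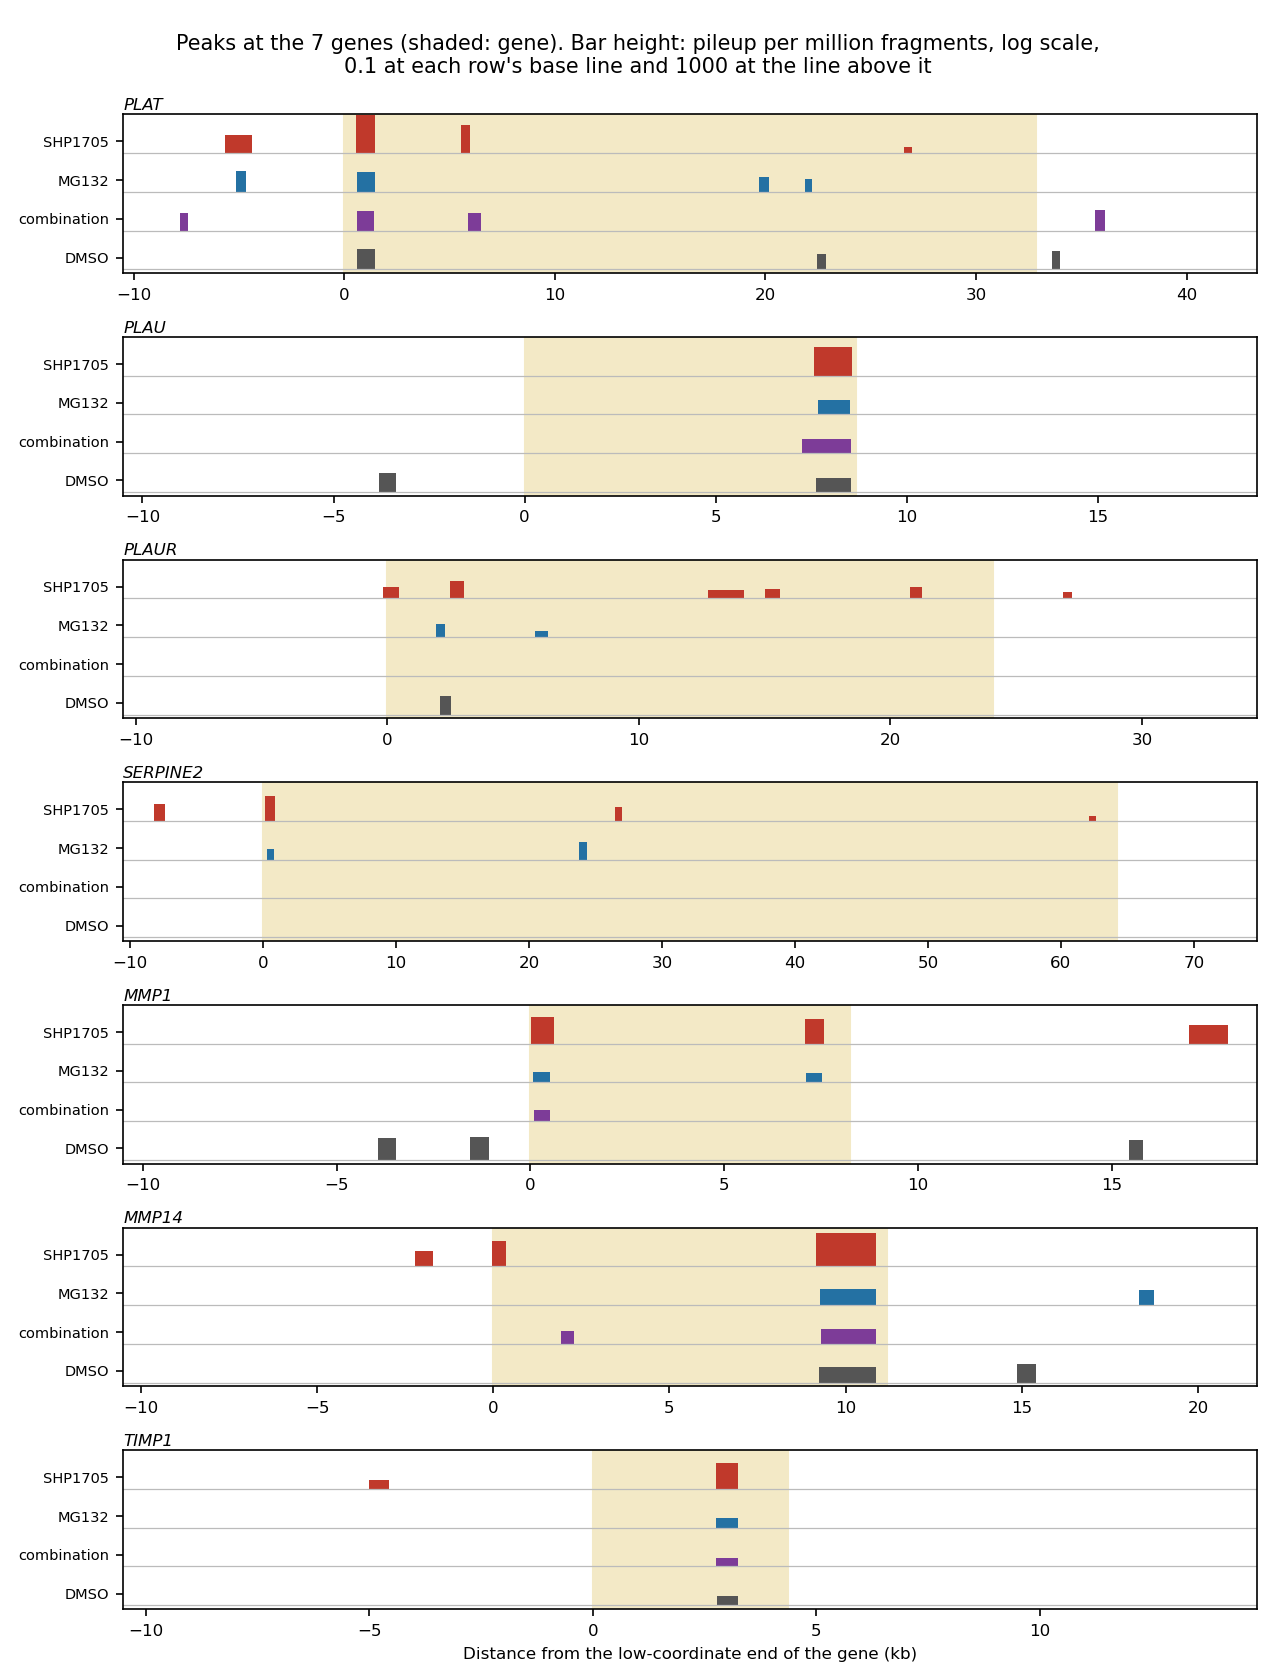
Peaks at the 7 genes, drawn by distance in kb from the gene's low-coordinate end, with 1 row per peak list and the gene shaded; bar height is FPM on a log scale, and narrow peaks are widened to be visible. Peaks of all 4 lists line up near 1 end of PLAT, PLAU and MMP14 and inside TIMP1, while most other peaks stand in 1 list.

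PLAT, which encodes tissue-type plasminogen activator, had the tallest peak of the 7 genes. Its coordinates are chr8:42174718-42207565 (hg38). The peak found in every list had 879.6 FPM in SHP1705 (interval 874.3 to 885.0), 12.3 in MG132 (11.0 to 13.7), 11.0 with both drugs (9.79 to 12.3) and 11.2 in DMSO (10.1 to 12.5). SHP1705 stood far above the other lists, whose intervals overlapped. In SHP1705 this peak was 16th by height of 85840, and PLAT was 13th of 17647 protein-coding genes with a peak. The summit lay 1196 bp inside the low-coordinate end of the gene in SHP1705, at chr8:42175289-42176176, and PLAT is a reverse-strand gene, so that this is its 3′ end (strand from general knowledge, not from the tables used here). The 4 peaks spanned nearly the same bases, with starts within 16 bp, ends within 31 bp and summits within 67 bp of each other. Over the 4128 regions with 1 peak in each of the 4 lists, the median range was 164 bp for starts, 160 bp for ends and 128 bp for summits.

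A second tall SHP1705 peak in PLAT, of 81.3 FPM, lay 5886 bp from the low-coordinate end and had a fold over local background of only 1.91, the lowest of the 23. It shared bases with a combination peak of 6.67 FPM whose summit was 300 bp away. Below the gene, inside AP3M2, an adaptor-complex subunit gene, MG132 had a peak of 13.7 FPM and SHP1705 one of 6.70, with summits 133 bp apart. That MG132 peak was the tallest of the 14 in its list at these genes. The remaining 7 peaks at PLAT were each in 1 list and ranged from 0.465 FPM in SHP1705 to 12.0 with both drugs, at 3043 bp beyond the high-coordinate end. DMSO had a peak of 7.23 FPM 868 bp beyond the same end, and no drug list had a peak that overlapped it.

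PLAU, which encodes urokinase, had a single peak in each drug list, at the 3′ end. It occupies chr10:73908832-73917494 (hg38) on the forward strand. Its 3′ peak had 86.9 FPM in SHP1705 (85.2 to 88.6), 3.37 in MG132 (2.72 to 4.13), 2.79 with both drugs (2.21 to 3.48) and 2.76 in DMSO (2.19 to 3.43). Again SHP1705 alone was high and the other 3 lists overlapped in their intervals. The summits lay 426, 431, 397 and 355 bp before the annotated 3′ end in the same order, and the SHP1705 peak was at chr10:73916405-73917409. The lncRNA gene C10orf55 also covers this position, and peaks carry no strand, so the genes cannot be told apart here. DMSO had a further peak of 9.86 FPM (8.76 to 11.1) at chr10:73905034-73905464, 3583 bp upstream of the gene. Its fold over local background was 26.3, against 10.6 for the DMSO peak at the 3′ end, and no drug list had a peak there.

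PLAUR, which encodes the urokinase receptor, was the only one of the 7 genes whose highest FPM was not in SHP1705, and this order depended on the scaling. On the reverse strand it spans chr19:43646095-43670169 (hg38). Its highest level was 5.66 FPM in SHP1705 (5.24 to 6.11), 2.27 in MG132 (1.74 to 2.91) and 9.22 in DMSO (8.16 to 10.4), and the combination had no peak. The 3 intervals do not overlap, with DMSO highest and MG132 lowest, but scaled by each list's median over regions in all 4 lists SHP1705 was 1.95 times DMSO. These peaks merged into 1 region only through the DMSO peak, which shared bases with both others, and the SHP1705 summit was 661 bp from the DMSO summit. The MG132 and DMSO summits were 125 bp apart. SHP1705 had 5 other peaks at PLAUR of 0.431 to 1.49 FPM, all in that list alone, of which 1 had its summit 128 bp before the 3′ end. MG132 had 1 more, of 0.476 FPM from 13 fragments.

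SERPINE2, which encodes the serpin protease nexin-1, had its tallest peak in SHP1705 at the 3′ end. The gene lies at chr2:223975045-224039286 (hg38), on the reverse strand. The 3′ peak had 34.2 FPM in SHP1705 (33.2 to 35.3), with its summit 480 bp before the 3′ end, and 1.21 in MG132 (0.832 to 1.70). No peak was called there in the combination or in DMSO. In MG132 a peak in the gene body was higher, with 6.63 FPM (5.70 to 7.67), 24082 bp from the 3′ end. SHP1705 had a body peak of 2.69 FPM at 26728 bp from that end, which was 310 bp wide and so narrower than any peak the other lists could hold. Another SHP1705 peak inside the gene had 0.304 FPM, 1853 bp after the start, and one outside it, of 5.08, lay in the neighbouring mitochondrial ribosomal protein gene MRPL44.

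MMP1, which encodes interstitial collagenase, had peaks called inside the gene in the drug lists and only outside it in DMSO. The inside peaks of MG132 and the combination were low, with 23 to 37 fragments. In hg38 the gene spans chr11:102789919-102798160. Inside it, the taller peak had 61.5 FPM in SHP1705 (60.1 to 63.0), 1.28 in MG132 (0.893 to 1.78) and 1.31 with both drugs (0.920 to 1.80), and none was called in DMSO. The summits lay 336, 270 and 272 bp from the low-coordinate end, which is the 3′ end, as MMP1 is a reverse-strand gene (also from general knowledge). A peak near the other end, 797 bp from it in SHP1705, had 34.1 FPM in SHP1705 and 0.843 in MG132. DMSO had 3 peaks outside the gene, of 19.2, 25.2 and 12.0 FPM, at 3601 and 1310 bp below it and 7375 bp above it. The highest of these (23.4 to 27.1) was the tallest DMSO peak at the 7 genes, at chr11:102788364-102788854, and MMP1 was 386th of 11736 genes with a DMSO peak. All 3 lay within the transcribed pseudogene WTAPP1, which spans MMP1, and no drug list had a peak that overlapped them. The DMSO peaks below the gene had 570 and 749 fragments and raise the local background, taken over 10000 bp, near its low-coordinate end. A pile of 35 to 37 fragments there might not have been called in DMSO, so its absence was not shown. A SHP1705 peak of 8.33 FPM, 9597 bp above the gene, covered the pseudogene CSNK1A1P2.

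MMP14, which encodes the membrane-type metalloproteinase, had the second-highest level of the 7 genes in SHP1705. The gene lies at chr14:22836585-22847758 (hg38), on the forward strand. Its 3′ peak had 245 FPM in SHP1705 (242 to 248), 4.47 in MG132 (3.71 to 5.34), 3.64 with both drugs (2.97 to 4.41) and 3.80 in DMSO (3.13 to 4.57). SHP1705 was again the one high list. In each list this was the widest peak at the 7 genes, from 1539 to 1723 bp, and their summits lay within 21 bp of each other, 575 to 596 bp before the 3′ end. DMSO had a taller peak, of 7.60 FPM (6.65 to 8.66), 3947 bp beyond the gene, and MG132 had one of 3.92 at 7371 bp beyond it. The combination had a peak of 2.15 FPM inside the gene, 2134 bp after the start.

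Among the promoter windows of these genes, only that of MMP14 had a peak on it. SHP1705 had a peak of 40.8 FPM (39.7 to 42.0) at chr14:22836559-22836942, with its summit 175 bp after the start, and no other list had a peak there. RefSeq promoter windows (GRCh38.p14, whose primary chromosomes have hg38 coordinates), from 250 bases before to 50 after a start, were matched for 5 of the 7 genes, with 7 windows in all, and PLAT and MMP1 were not matched. Peaks overlapped 14.8% of all 34781 such windows in SHP1705, 1.99% in MG132, 1.52% with both drugs and 1.34% in DMSO. The MMP14 window, chr14:22836335-22836634 on the forward strand, is shown because its last 76 bases, in capitals, lie under that SHP1705 peak.
MMP14: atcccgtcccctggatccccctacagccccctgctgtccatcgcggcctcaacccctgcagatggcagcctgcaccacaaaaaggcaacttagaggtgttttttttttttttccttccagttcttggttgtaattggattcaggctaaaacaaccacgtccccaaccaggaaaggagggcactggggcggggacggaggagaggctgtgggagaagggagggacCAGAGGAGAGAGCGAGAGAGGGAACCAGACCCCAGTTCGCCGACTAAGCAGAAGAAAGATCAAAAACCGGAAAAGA

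The windows were searched on both strands for CACGTG, the E-box bound by the clock activators that CRY proteins repress, and for TGANTCA, the AP-1 motif, to which PLAU and MMP genes are known to respond. In all 35116 windows, 7.26% held the first and 7.71% the second, and the 2 motifs share no bases in the windows below. Among the 7 windows, 1 of the 2 SERPINE2 windows held an E-box, and the PLAUR window held an AP-1 motif. The E-box began 87 bases and the AP-1 motif 186 bases before the start from which its window was measured. Both windows are shown, with the motif in capitals, as those that held a match, and no list had a peak on them. The SERPINE2 window is chr2:224031429-224031728 and the PLAUR window chr19:43670120-43670419, both on the reverse strand and printed 5′ to 3′ along it. The nearest SHP1705 peak was 5444 bp from the first and 2552 bp from the second. A match describes letters only, and says nothing of binding.
SERPINE2: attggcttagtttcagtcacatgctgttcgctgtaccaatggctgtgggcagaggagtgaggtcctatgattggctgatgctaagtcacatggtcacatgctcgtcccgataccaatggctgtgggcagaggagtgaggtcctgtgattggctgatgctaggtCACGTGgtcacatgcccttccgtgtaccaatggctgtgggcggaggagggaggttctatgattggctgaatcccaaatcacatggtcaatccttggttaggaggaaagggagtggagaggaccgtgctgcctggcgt
PLAUR: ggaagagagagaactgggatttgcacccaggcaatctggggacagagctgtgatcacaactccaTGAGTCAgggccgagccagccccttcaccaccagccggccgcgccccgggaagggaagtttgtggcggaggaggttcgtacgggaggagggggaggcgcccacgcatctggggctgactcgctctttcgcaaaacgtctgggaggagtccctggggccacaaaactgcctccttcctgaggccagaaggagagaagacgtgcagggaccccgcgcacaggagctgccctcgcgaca

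TIMP1, which encodes the metalloproteinase inhibitor, had the lowest of the 4 peaks found in every list. TIMP1 is at chrX:47582436-47586789 (hg38), on the forward strand. Its peak had 46.1 FPM in SHP1705 (44.9 to 47.3), 1.10 in MG132 (0.742 to 1.57), 0.777 with both drugs (0.487 to 1.18) and 0.808 in DMSO (0.517 to 1.20). In raw fragments that was 5453, 30, 22 and 24, so that the last 3 rest on few fragments and overlap. The 4 peaks began within 24 bp and ended within 14 bp of each other, at chrX:47585190-47585690 in SHP1705. TIMP1 lies wholly inside SYN1, a synaptic vesicle protein gene, and peaks were not assigned to a strand. SHP1705 had 1 more peak, of 0.845 FPM, 4898 bp below the gene.

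**Figure D2:**
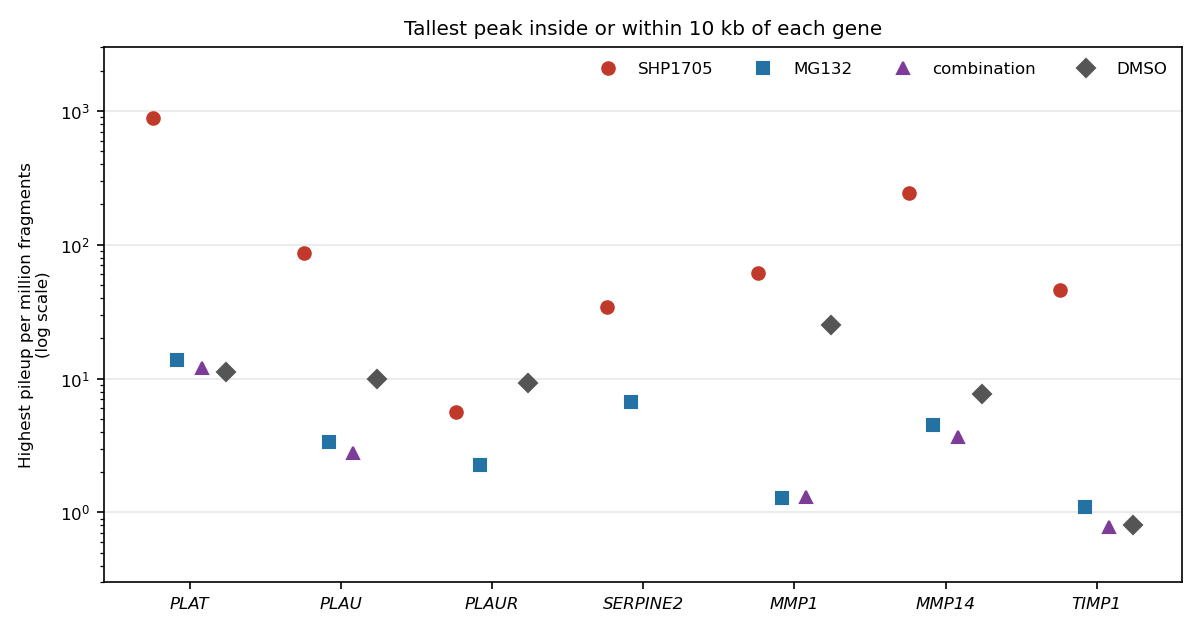
Highest FPM (log scale) among peaks inside or within 10 kb of each gene, 1 point per peak list, left to right SHP1705, MG132, combination and DMSO; a missing point means no peak. SHP1705 is highest at 6 genes and DMSO at PLAUR, where SHP1705 is 1.95 times DMSO if lists are scaled by their median over regions in all 4 lists.

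A pileup is counted at 1 position, but the value ordered here is the highest among all peaks at a gene. Gene and flank ran from 24.4 kb at TIMP1 to 84.2 kb at SERPINE2, and a longer stretch can hold more peaks. The orders were not corrected for this length. In SHP1705 the order was PLAT, MMP14, PLAU, MMP1, TIMP1, SERPINE2 and PLAUR, from 879.6 down to 5.66 FPM, and no neighbours overlapped in their counting intervals. In MG132 PLAT came first with 13.7, followed by SERPINE2, MMP14, PLAU, PLAUR, MMP1 and TIMP1 with 1.10, and from MMP14 down each gene overlapped the next. In the combination the order was PLAT, MMP14, PLAU, MMP1 and TIMP1, from 12.0 to 0.777, with overlap between MMP14 and PLAU and between MMP1 and TIMP1. In DMSO MMP1 was highest with 25.2, then PLAT, PLAU, PLAUR, MMP14 and TIMP1 with 0.808. There PLAT overlapped PLAU, PLAU overlapped PLAUR, and PLAUR overlapped MMP14.

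The median over the 7 genes was 61.5 FPM in SHP1705, where all genes with a peak had a median of 5.10. It was 3.37 in MG132 against 7.15, 2.79 with both drugs against 9.00, and 9.54 in DMSO against 9.89, with genes that had no peak left out. The DMSO median drew on peaks outside the gene at MMP1, PLAU and MMP14. Inside, PLAU had 2.76 in DMSO, MMP14 had 3.80 and MMP1 had no peak. In MG132 and the combination, only the highest value of PLAT came from outside the gene. In SHP1705, between 0.0680% and 9.07% of genes with a peak stood above PLAT, MMP14, PLAU, MMP1, TIMP1 and SERPINE2. PLAUR had 47.5% above it. In the combination 32.9% of genes stood above PLAT and 84.7% to 97.2% above the other 4 with a peak.

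SHP1705 was set against DMSO for the effect of the CRY2 stabilizer. Of the 5 regions at these genes with a peak in both lists, 4 were at least 2 times higher in SHP1705, as were 24.6% of all 8597 such regions. The ratio of FPM was 78.3 at PLAT (interval 70.3 to 87.4), 64.5 at MMP14 (53.6 to 78.3), 57.1 at TIMP1 (38.3 to 89.1) and 31.5 at PLAU (25.3 to 39.6). At PLAUR the ratio was 0.614 (0.533 to 0.709), between peaks whose summits were 661 bp apart, and it turned to 1.95 when lists were scaled by their median over regions in all 4 lists. The same scaling raised the other 4 ratios to between 100.1 at PLAU and 249 at PLAT. With sharing of at least 50% of the shorter peak required, the SHP1705 and DMSO peaks of PLAUR were no longer 1 region and gave no ratio. Over all regions in both lists the median ratio was 0.145, and 69.9% were at least 2 times lower in SHP1705. Regions inside genes differed from this. Of regions in all 4 lists with the SHP1705 summit in a protein-coding gene, 1046 had each other list under 10% of the raw SHP1705 pileup. Only 84 did not. The 4 high regions here are among the 1046, so their high ratios were usual for shared regions inside genes. These ratios compare libraries of unequal depth and carry no replicate check.

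MG132 was set against DMSO for the effect of proteasome inhibition. At PLAT, MMP14, PLAU and TIMP1 the ratios were 1.10 (0.939 to 1.28), 1.18 (0.903 to 1.53), 1.22 (0.897 to 1.67) and 1.36 (0.769 to 2.43), and all 4 intervals include 1. At PLAUR the ratio was 0.246 (0.184 to 0.326), so that 1 of 5 regions was at least 2 times apart, beside 29.7% of all 8873 regions with peaks in both lists. The MG132 peaks in SERPINE2 and MMP1 had no DMSO peak to be compared with, and the DMSO peaks beside PLAU, MMP1 and MMP14 had no MG132 peak. A difference of up to the bounds given cannot be told from none at this depth.

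The combination was set against DMSO for both drugs together, and against MG132 for SHP1705 added to it. Against DMSO the ratios were 0.977 at PLAT (0.834 to 1.14), 0.956 at MMP14 (0.725 to 1.26), 1.01 at PLAU (0.732 to 1.39, and 0.986 under the scaling by medians) and 0.962 at TIMP1 (0.514 to 1.79). None of the 4 regions was 2 times apart, beside 28.9% of all 8158 regions. Against MG132 they were 0.892 (0.762 to 1.04), 0.813 (0.619 to 1.07), 0.827 (0.604 to 1.13) and 0.706 (0.388 to 1.27) in the same order of genes, and 1.02 (0.624 to 1.66) at the 3′ peak of MMP1. Here too 0 of 5 regions were 2 times apart, beside 28.9% of 9333. The combination had the same dose of SHP1705, 10 µM, as the SHP1705 library, and its level at the shared PLAT peak was 11.0 FPM, where SHP1705 alone had 879.6.

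**Figure D3:**
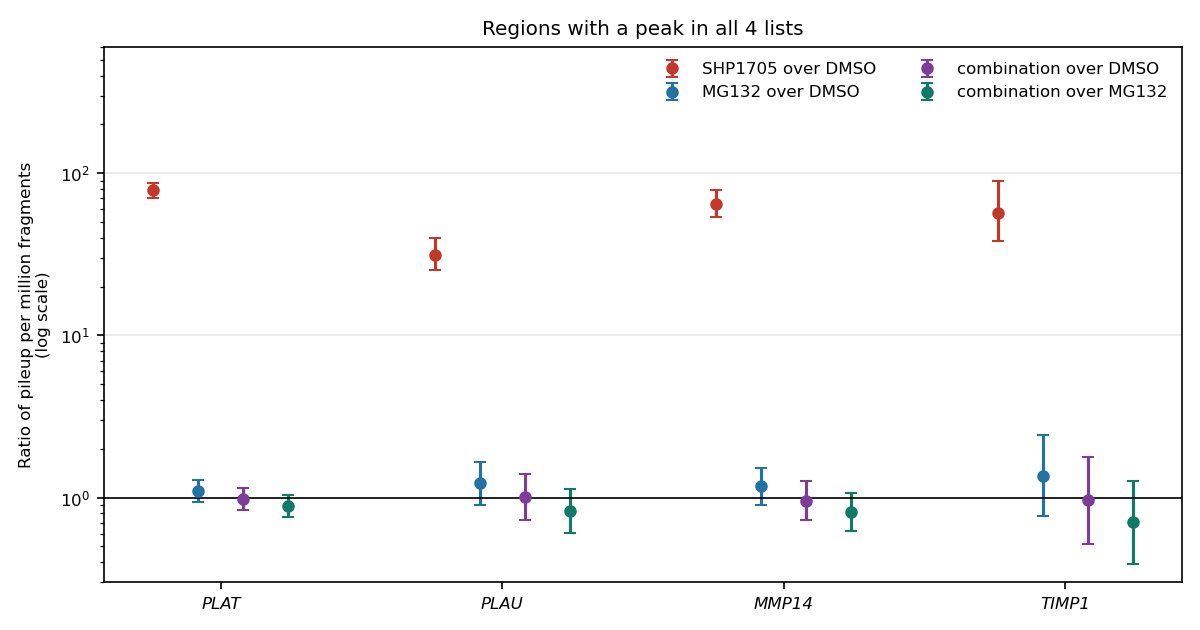
Ratio of FPM (log scale) at the 4 regions with a peak in every list, for SHP1705, MG132 and the combination over DMSO and for the combination over MG132; bars are exact 95% intervals for counting error only. SHP1705 over DMSO lies between 31.5 and 78.3, and every other interval includes 1.

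The peaks that the other lists shared with tall SHP1705 peaks were low and close to each other in raw height. At PLAT the raw pileups were 104078 in SHP1705, 336 in MG132, 311 with both drugs and 334 in DMSO. At MMP14 they were 29009, 122, 103 and 113, and at PLAU 10283, 92, 79 and 82. As a share of the SHP1705 pileup this was 0.299% to 0.323% at PLAT, 0.355% to 0.421% at MMP14, 0.768% to 0.895% at PLAU and 0.403% to 0.550% at TIMP1. The peaks of MMP1 (0.481% to 0.570%) and SERPINE2 (0.814%) that were not in all lists had shares in or near this range. The other tall PLAT peak, shared with the combination alone, stood above it with 1.97%. The highest of the 3 other lists was 1.08 times the lowest at PLAT, 1.16 at PLAU, 1.18 at MMP14 and 1.36 at TIMP1, beside a median of 1.36 over all 1611 regions in all lists with a SHP1705 pileup of at least 1000. Over those regions the median share was 0.851% in MG132, 0.736% with both drugs and 0.871% in DMSO.

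Regions in all 4 lists formed separate bands on this scale, and the 4 at these genes lay in the lower one. With a limit of 10%, chosen after the values were seen, the other 3 lists were each below it in 1402 of 4584 regions (30.6%). Of these 1402 regions, 74.6% had their SHP1705 summit inside a protein-coding gene and 35.5% inside a pseudogene, against 2.64% and 0.754% of the other 3182 regions. The source of the low peaks in MG132, the combination and DMSO was not tested, so a peak in all 4 lists, and a ratio near 1 among these 3, describe the lists and not an activity shown under each treatment.

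**Figure D4:**
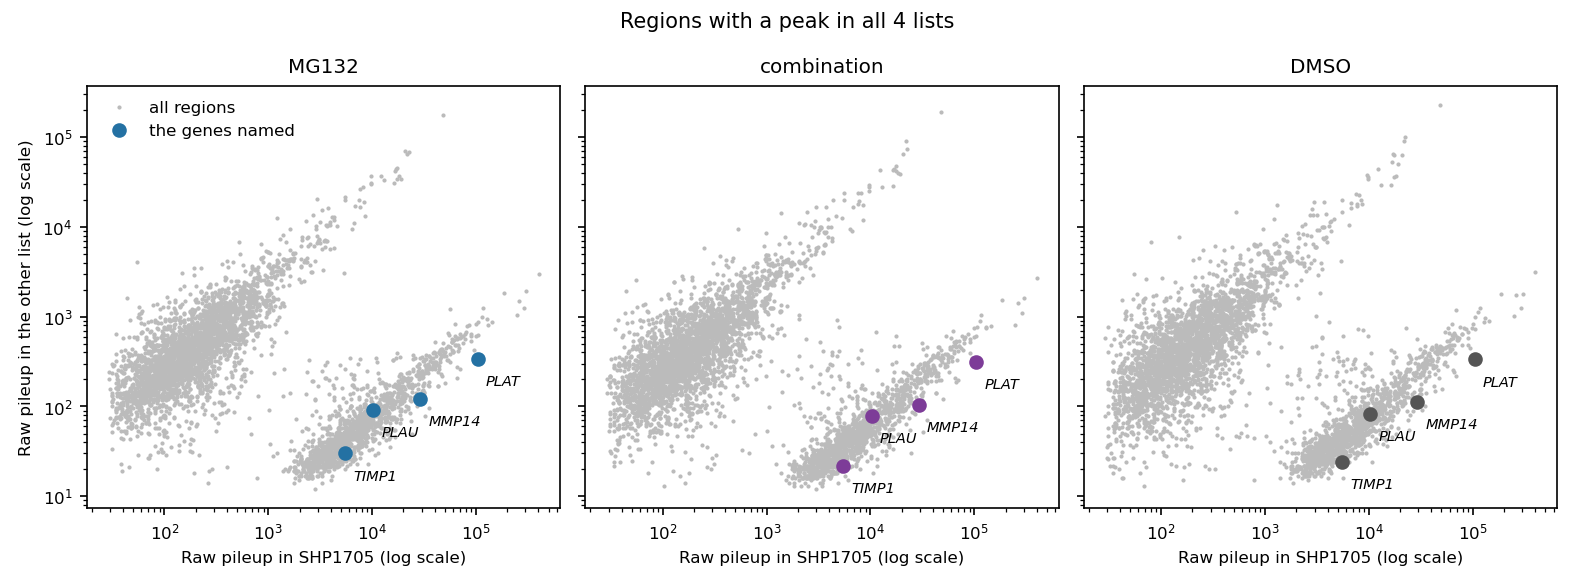
Raw pileup in MG132, the combination and DMSO against raw pileup in SHP1705 (both log scale) for the 4584 regions with a peak in all 4 lists, in grey, with the regions at PLAT, PLAU, MMP14 and TIMP1 marked. The marked regions lie in the lower of 2 bands, where the other list has under 1% of the SHP1705 pileup at these genes.

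Tall SHP1705 peaks at these genes were mostly shared and low ones mostly not. Of the 9 with a pileup of at least 1000 fragments, 8 overlapped a peak of another list, beside 47.5% of all such peaks, and the exception was the peak at the start of MMP14. Of the 14 lower ones, 2 did, beside 16.1% of all. The tallest peak inside the gene lay within 1 kb of a gene end for 4 of 7 genes in SHP1705 (PLAU, SERPINE2, MMP1 and MMP14), beside 39.0% of all genes with a peak inside. The count was 3 of 7 in MG132 beside 11.5%, 3 of 5 with both drugs beside 10.8%, and 2 of 5 in DMSO beside 12.0%. PLAT and TIMP1 just missed this distance in SHP1705, with 1196 and 1233 bp.

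Peaks found in a single list made up 13 of 23 peaks at these genes in SHP1705, 5 of 14 in MG132, 3 of 9 in the combination and 7 of 12 in DMSO. Of all peaks, 81.5% were of this kind in SHP1705, 76.8% in MG132, 74.5% with both drugs and 70.9% in DMSO, and no difference between lists was tested. The 3 DMSO peaks beside MMP1 were each taller than the tallest shared DMSO peak at these genes, that of PLAT with 11.2 FPM, though the interval of the lowest, 12.0 (10.8 to 13.3), overlapped it. The combination peak above PLAT, of 12.0, was likewise taller than the shared one of 11.0, with overlapping intervals. The 13 such SHP1705 peaks ranged from 0.304 FPM at SERPINE2 to 40.8 at the start of MMP14, and the 7 such DMSO peaks from 3.37 to 25.2, so that the ranges overlapped.

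A wider list of 46 proteases, inhibitors and receptors of the same systems was counted in the same way. In it 44 genes had a SHP1705 peak inside or within 10 kb, 35 had one in MG132, 36 with both drugs and 33 in DMSO. The shares of all protein-coding genes were 88.4%, 71.3%, 64.0% and 58.8% in the same order. A region in all 4 lists was found at 13 of the 46, beside 8.74% of all protein-coding genes. No difference from these shares was tested. The median level of the wider list was 20.2 FPM in SHP1705, 6.38 in MG132, 7.98 with both drugs and 6.83 in DMSO. All genes with a peak had medians of 5.10, 7.15, 9.00 and 9.89, so the wider list was above them in SHP1705 only. The tallest in SHP1705 were MMP2, the gelatinase whose proform MMP14 activates, with 426, CTSB, encoding cathepsin B, with 268, BSG, encoding the metalloproteinase inducer basigin, with 258, and TIMP2, encoding the inhibitor that bridges MMP14 and pro-MMP2, with 232. In DMSO these had 5.25, 4.68, 9.25 and 4.85. The tallest in DMSO were MMP10 with 25.2, ANXA2, encoding the plasminogen-binding protein annexin A2, with 20.5, TIMP4 with 18.0 and MMP9 with 17.1. The TIMP4 and MMP9 peaks lay outside those genes, each within another annotated gene. The MMP10 value is the peak between MMP10 and MMP1, already given for MMP1.

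The protein-coding genes whose levels over the 4 lists were most like these were found by Euclidean distance in log2 FPM, over 7356 other genes with a peak in every list. For PLAT they were AP3M2, its neighbour (distance 0.26), and TBCA (0.48), and for PLAU they were PTGIR (0.40) and MCL1 (0.45). The windows of AP3M2 and PLAT share peaks, so both had 879.6 FPM in SHP1705, 13.7 in MG132 and 11.2 in DMSO. They differed in the combination alone, with 14.4 at AP3M2 and 12.0 at PLAT, so this match is not likeness of separate peaks. For MMP14 they were THBS1 (0.31) and PPP1R27 (0.59), and for TIMP1 PNRC1 (0.20) and ILK (0.29). For MMP1 they were GNB2 and GIGYF1, which had the same values as each other, at a distance of 0.56.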

How the data were processed

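Peak lists of 4 STARR-seq libraries, 1 per treatment, were analysed. The submitters' processing notes name hg38 and the tools MACS2, Bowtie2, Trimmomatic and FastQC. Per the file headers, MACS 2.2.6 called peaks in each library alone, with paired-end fragments, duplicates kept, no control, a q limit of 0.01 and a local background over 10000 bp. The deposited signal is the pileup at the summit, not scaled for depth. The deposited −log10 p-value and q-value and the fold over local background are the authors' values for each peak, used only within a list.

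Pileups were divided by the fragments in the header and multiplied by 1000000 (FPM). Gene coordinates came from RefSeq GRCh38.p14, which shares hg38 coordinates on chromosomes 1 to 22 and X; it gave no exons, and strand came from the promoter table for 5 genes and from general knowledge for PLAT and MMP1. No genome sequence was used, so peak sequences are not analysed here. Ratios used the tallest peak of each list in a merged region, and exact binomial intervals came from SciPy 1.17.1. A ratio of at least 2 or at most 0.5 counted as apart. Placement, merging and ratios were tested on simulated data. The genes, the list of 46 and the comparisons were chosen with earlier results of these data known. The text names the 7 genes, genes that also contain their peaks, the 4 tallest genes of the wider list in SHP1705 and in DMSO, the 2 nearest genes by level, and marker genes of the cell line and of other cell types.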

Additional observations from a re-analysis of the deposited data

Results flagged for a closer look

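At the 4 regions with a peak in every list, the ratio for SHP1705 was above 1 without MG132, while with it the ratio was below 1 by less than its counting error. PLAT had a ratio of 78.3 for SHP1705 over DMSO and 0.892 for the combination over MG132, and the first divided by the second was 87.8. MMP14 had 64.5 and 0.813, a quotient of 79.3. TIMP1 had 57.1 and 0.706, a quotient of 80.8, and PLAU had 31.5 and 0.827, a quotient of 38.1. Each ratio compares 1 library with 1 other, the intervals of the second ratio include 1 at all 4 genes, so no change with MG132 present was shown, and the difference between the ratios was not tested. Of all 4584 regions in 4 lists, 25.5% were higher in SHP1705 than in DMSO and lower in the combination than in MG132. In the 1611 with a SHP1705 pileup of at least 1000, the median share of that pileup was 0.851% in MG132 and 0.736% in the combination. A lower combination was thus not particular to these genes. At the 4 regions the other lists had 0.299% to 0.895% of the SHP1705 pileup, and the source of these low peaks was not tested.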

How the results depend on the processing

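Of 136 values under other settings, 113 stayed within the limits used, which were 1.5 times for counts and the counting interval for heights and ratios. With lists cut to the 47822 strongest peaks each, MG132 kept 4 peaks at 3 genes and the combination 5 peaks at 2 genes, and 1 region was in all 4 lists in place of 4. Within 50 kb the peaks numbered 53 with SHP1705, 26 with MG132, 22 with both drugs and 20 with DMSO, in 92 regions, 74 of them in 1 list. With summits inside the gene only, DMSO had 6 peaks, there were 23 regions, 14 of them in 1 list, and the highest level was 12.3 FPM in MG132 and 11.2 in DMSO. Regions in all 4 lists numbered 4 in both cases. Scaled by each list's median over regions in all 4 lists, SHP1705 over DMSO was 249 at PLAT, 205 at MMP14, 181 at TIMP1 and 100.1 at PLAU, and the highest SHP1705 level was 2795. That scaling also changed the direction of SHP1705 over DMSO at PLAUR, to 1.95, and of the combination over DMSO at PLAU, to 0.986. A stricter q, a width of at least the largest of the 4 minimum widths, overlap by any base and sharing of at least 50% of the shorter peak moved no value past these limits, except that the PLAUR ratio of SHP1705 over DMSO had no value under the last. Without the SHP1705 list, a setting added after the data were seen, 4 regions were in all 3 other lists and 19 in 1. No paired analysis was possible because each treatment had 1 library.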
